A study of Mus musculus with 4 samples.

Results

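Genes of the hypoxia-inducible factor (HIF) pathway and of glycolysis were followed across the cell classes of the mouse lung. The set held 34 genes chosen by symbol, of 30028 genes found over the 4 libraries, and all 34 were present in each library. Single-cell RNA libraries had been made from whole lung in a 2 by 2 design, with 1 library per group, and each library pooled cells of 5 mice aged 11 weeks. The HSK library came from FUNDC1 knockout mice under HySu, a model of pulmonary hypertension in which hypoxia is combined with SU5416, a blocker of VEGF receptor signalling, given in 3 weekly doses. The HSW library came from wild-type mice under HySu, and the NK and NW libraries came from FUNDC1 knockout and wild-type mice that received vehicle and stayed in normoxia. FUNDC1 is a mitochondrial outer membrane receptor for mitophagy. The labels did not give the driver of the deletion or the cells that carry it, nor the strain, and hypoxia and SU5416 were never given apart.

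HIF is a pair of proteins, an oxygen-sensitive alpha subunit (HIF-1alpha from Hif1a, or HIF-2alpha from Epas1) and a stable partner encoded by Arnt. With oxygen present, prolyl hydroxylases mark the alpha subunit, and the VHL protein directs its degradation, so that the mRNA of an alpha subunit need not follow its activity. When oxygen is short the pair binds a short core motif beside its targets, among them most enzymes of glycolysis. In the lung, HIF-2alpha is known above all from endothelial cells, and both alpha subunits have been studied in hypoxic pulmonary hypertension.

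Promoters of 6 members are given because these genes hold the contrast described further on. By CPM, Gapdh and Mif were 1.5-fold higher under HySu in some classes of each genotype, and Eno1 in some classes of knockout lungs only. Pfkl, Slc16a3 and Kdm3a were 1.5-fold lower in most classes of each genotype. Each run is the 250 bases before the first RefSeq start (GRCm38.p6), 5′ to 3′ on the strand of the gene, and capitals mark ACGTG or GCGTG, the core of the hypoxia response element, or its reverse complement CACGT or CACGC.
Gapdh, chr6:125165774-125166023, minus strand: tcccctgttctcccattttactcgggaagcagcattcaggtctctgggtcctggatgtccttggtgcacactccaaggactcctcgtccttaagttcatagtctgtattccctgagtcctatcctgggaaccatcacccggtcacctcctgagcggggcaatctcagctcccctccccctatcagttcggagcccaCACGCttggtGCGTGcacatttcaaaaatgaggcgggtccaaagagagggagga
Eno1, chr4:150236458-150236707, plus strand: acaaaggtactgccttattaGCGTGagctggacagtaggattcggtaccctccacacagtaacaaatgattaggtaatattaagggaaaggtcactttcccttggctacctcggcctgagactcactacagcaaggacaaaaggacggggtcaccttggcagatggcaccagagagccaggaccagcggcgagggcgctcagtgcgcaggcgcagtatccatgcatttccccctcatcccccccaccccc
Mif, chr10:75860278-75860527, minus strand: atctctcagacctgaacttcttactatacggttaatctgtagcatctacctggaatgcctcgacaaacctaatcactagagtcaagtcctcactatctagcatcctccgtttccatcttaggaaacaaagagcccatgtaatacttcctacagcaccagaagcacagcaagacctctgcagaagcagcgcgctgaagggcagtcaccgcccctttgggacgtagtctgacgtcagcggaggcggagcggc
Pfkl, chr10:78009808-78010057, minus strand: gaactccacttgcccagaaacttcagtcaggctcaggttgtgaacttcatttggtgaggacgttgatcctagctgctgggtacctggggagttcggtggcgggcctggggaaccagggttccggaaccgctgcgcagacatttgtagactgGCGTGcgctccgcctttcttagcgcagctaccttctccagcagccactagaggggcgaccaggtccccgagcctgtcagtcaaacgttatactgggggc
Slc16a3, chr11:120948817-120949066, plus strand: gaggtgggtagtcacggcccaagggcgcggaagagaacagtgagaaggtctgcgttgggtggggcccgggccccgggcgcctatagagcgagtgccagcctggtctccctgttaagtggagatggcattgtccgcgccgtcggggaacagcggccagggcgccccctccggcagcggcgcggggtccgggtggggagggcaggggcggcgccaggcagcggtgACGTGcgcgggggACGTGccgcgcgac
Kdm3a, chr6:71632918-71633167, minus strand: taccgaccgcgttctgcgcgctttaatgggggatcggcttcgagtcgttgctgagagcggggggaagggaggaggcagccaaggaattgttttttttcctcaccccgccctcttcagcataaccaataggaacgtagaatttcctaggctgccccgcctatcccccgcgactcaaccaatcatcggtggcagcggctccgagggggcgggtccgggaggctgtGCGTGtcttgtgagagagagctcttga
The core stood in both kinds of promoter. Gapdh held 2 matches, 44 and 54 bases before the start, and Slc16a3 held 2, 14 and 27 bases before it. Pfkl, Kdm3a and Eno1 held 1 match each, 99, 27 and 230 bases before the start, and the Mif window held 0. Of the 31 members in the RefSeq table, 22 held at least 1 match in this window (71%), against 10431 of 27025 promoters of the same length (38.6%). The letters overlap with the E-box CACGTG, which counts as 2 overlapping matches. A match describes these letters and is not evidence of binding.

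The libraries held 4128 to 9164 cells and 41308071 to 63501686 unique molecular identifiers (UMIs, each a counted RNA molecule). Cells were clustered, cells that mixed lineages were removed, and classes were named from marker genes, so each name below stands for cells that are like that type. One cluster had 3 plasma cell markers and 2 B cell markers among its 10 leading genes, and it is called by its number, cluster 11, among the classes. Secretory club marker RNA was present in the other classes too, for example at 24680 CPM in HSK, 4997 in HSW, 1767 in NK and 3557 in NW in T and NK cells, and its part in the ratios was not tested. Mixed cells made up most of the 10.7% of cells removed in HSK, 17.3% in HSW, 28.7% in NK and 24.3% in NW, and 20 to 70 cell barcodes were shared between pairs of libraries. Fundc1 itself had 0 to 5 UMIs in any class of HSK and 0 to 17 in any class of NK; alveolar macrophages had 2 in HSK, 563 in HSW, 17 in NK and 708 in NW, so the gene was low in every class of both knockout libraries and not in endothelial cells alone, although the title of the series names a deficiency in endothelium. Levels, those of marker lists included, are given as CPM, the UMIs of a gene scaled to 1000000 UMIs of a class in a library, and intervals in brackets are 95% intervals of counting error only. Without replicate libraries no test of a condition was possible, and a gene counts as higher or lower where the ratio of CPM reached 1.5 either way with at least 30 UMIs in the pair. The median of all genes lay below 0 on the log2 scale under HySu, by CPM at -0.07 in endothelial cells to -1.12 in secretory club cells for HSW against NW. Trimmed-mean (TMM) scaling, which centres most genes near 0, is therefore given beside CPM. A gene is said to pass under both scalings where the CPM and the TMM ratio both reached the fold, each with an interval that excluded 1. Values with mixed cells kept (doublet calls of Scrublet alone removed) or with every cell thinned to 4726 UMIs are given where they end a call or move it by over 1.5 times.

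Epas1 marked the endothelial class. Its level there was 3206 CPM in HSK, 3736 CPM in HSW, 4346 CPM in NK and 3350 CPM in NW, the highest of any class with at least 20 cells, in all 4 libraries. Alveolar type 2 (AT2) cells, which make surfactant, had 228, 254, 313 and 268 CPM in the same order of HSK, HSW, NK and NW. In T and NK cells, cluster 11, monocytes, dendritic cells and interstitial macrophages Epas1 stayed under 75 CPM, at 5.44 to 22.4 Epas1 UMIs for every 100 UMIs of endothelial marker genes, and endothelial cells themselves had 11.9 to 15.4. Alveolar macrophages had 37.1 to 54.4 CPM of Epas1, at 2.93 to 4.36 UMIs for every 100 of those marker UMIs, and their own marker list shares Car4 with the endothelial list. Expression and background cannot be told apart at these leukocyte levels, and their ratios between libraries are not treated as expression. Hif1a was spread more evenly and was highest in classical monocytes among the 10 classes with enough cells in all 4 libraries, with 78.9 CPM in HSK, 85.2 CPM in HSW, 148 CPM in NK and 137 CPM in NW.

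**Figure D1:**
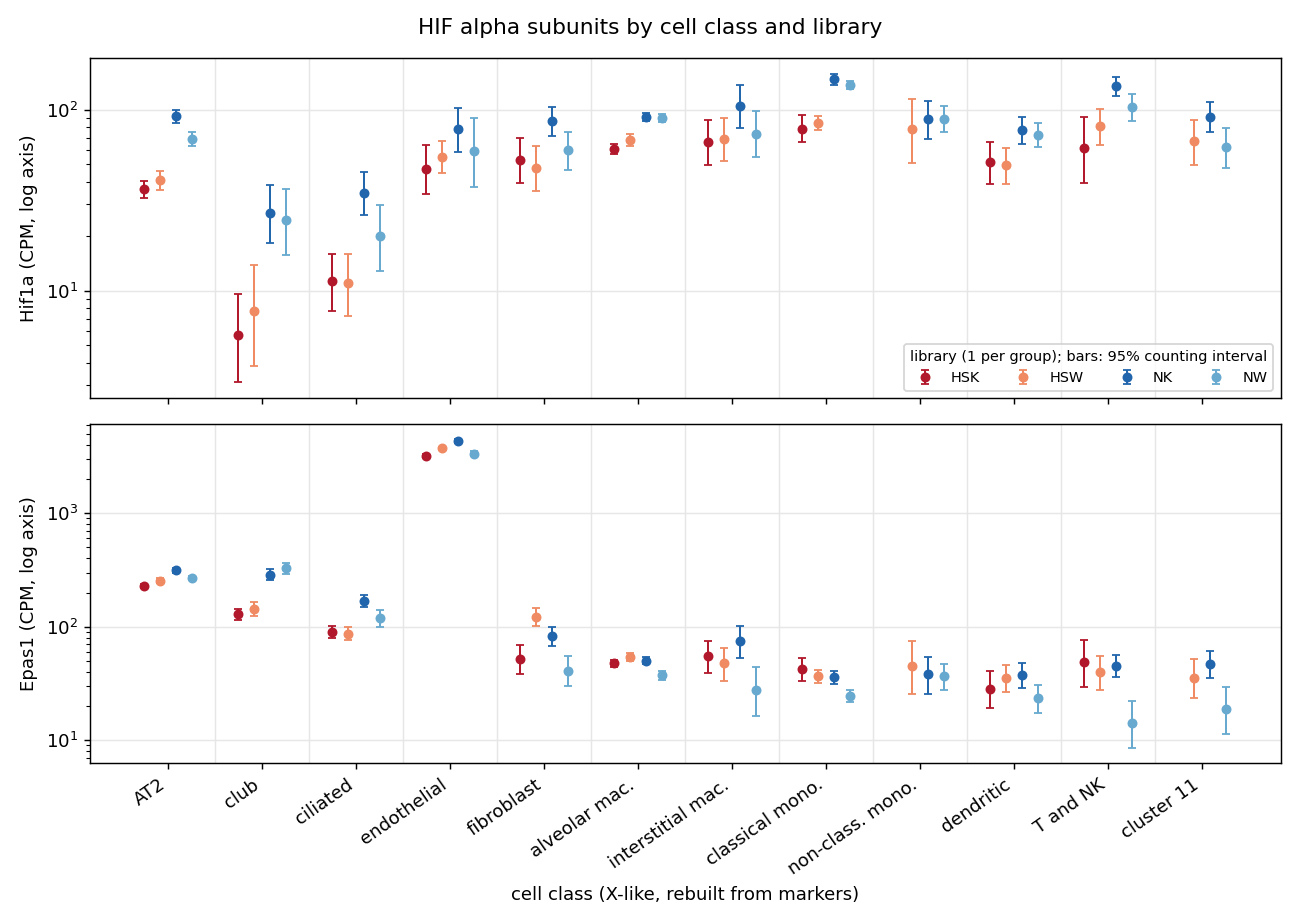
Levels of Hif1a and Epas1 in CPM on a log axis, by cell class and library; points are single libraries and bars are 95% intervals of counting error. Epas1 stands far above the rest in endothelial cells (3206 to 4346 CPM), whereas Hif1a lies lower in HSK than in NK in all 10 classes compared.

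For 15 of the 34 members the class with the highest level, among those 10, was the same in all 4 libraries. Egln2, a prolyl hydroxylase, and Hk1, the housekeeping hexokinase, were highest in endothelial cells, at 44.0 to 75.6 CPM and 75.4 to 93.6 CPM. The enolase Eno1, the pyruvate kinase Pkm and the lactate exporter Slc16a3 were highest in classical monocytes, and the aldolase Aldoa in alveolar macrophages. Pdk1, a kinase that inhibits pyruvate dehydrogenase, and the cytokine Mif were highest in T and NK cells. Adm, the vasodilator peptide adrenomedullin, was measured in fibroblasts, with 82 UMIs in HSK, 72 in HSW, 112 in NK and 90 in NW, and it reached 30 UMIs in a pair in no other class. Its fibroblast level was 86.9, 67.6, 79.8 and 80.3 CPM in that order, and the 4 values lay within 1.5-fold of each other. Egln3, the prolyl hydroxylase that hypoxia is known to induce, never reached 30 UMIs in a pair of libraries in any class.

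The first question of the design is how wild-type lungs under HySu compare with those in normoxia. In HSW against NW, Gapdh, the glyceraldehyde-3-phosphate dehydrogenase, was higher in 8 of 12 classes, and Bhlhe40, a repressor of transcription, and Kdm3a, a histone demethylase, were each lower in 10 of 12 classes. Over 304 combinations of member and class, 21 were at least 1.5-fold higher (6.91%), against 6.63% of all genes. A further 103 were at least 1.5-fold lower (33.9%), against 35.4% of all genes. With TMM scaling 46 were higher and 36 lower, where 15.2% and 15.5% of all genes were. The median log2 ratio of the members in a class ran from -1.12 to 0.00, against -1.12 to -0.07 for all genes, so the set as a whole stood near the background.

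The same question in knockout lungs is answered by HSK against NK, which shares no library with the wild-type comparison. Over 270 combinations, 26 were higher (9.63%), against 7.53% of all genes, and 115 were lower (42.6%), against 47.6% of all genes. With TMM scaling 58 were higher and 46 lower, where 18.7% and 19.5% of all genes were. Of 251 combinations measured in both genotypes, 7 were at least 1.5-fold higher in both and 64 were lower in both. The shares were 2.79% higher and 25.5% lower in both, against 2.48% and 26.4% over all genes. Some of the 64 were in secretory club and ciliated cells, where club markers took a larger share of UMIs under HySu. In the club class they stood at 791200 CPM in HSK, 800000 in HSW, 560000 in NK and 622300 in NW. CPM adds up to a fixed total, so a larger share for these markers leaves less for all other genes. How far this set the ratios was not tested. By a stricter rule, which also asked both intervals to exclude 1, 1 combination passed 1.5-fold in opposite directions. The share of all genes that did so was not taken.

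**Figure D2:**
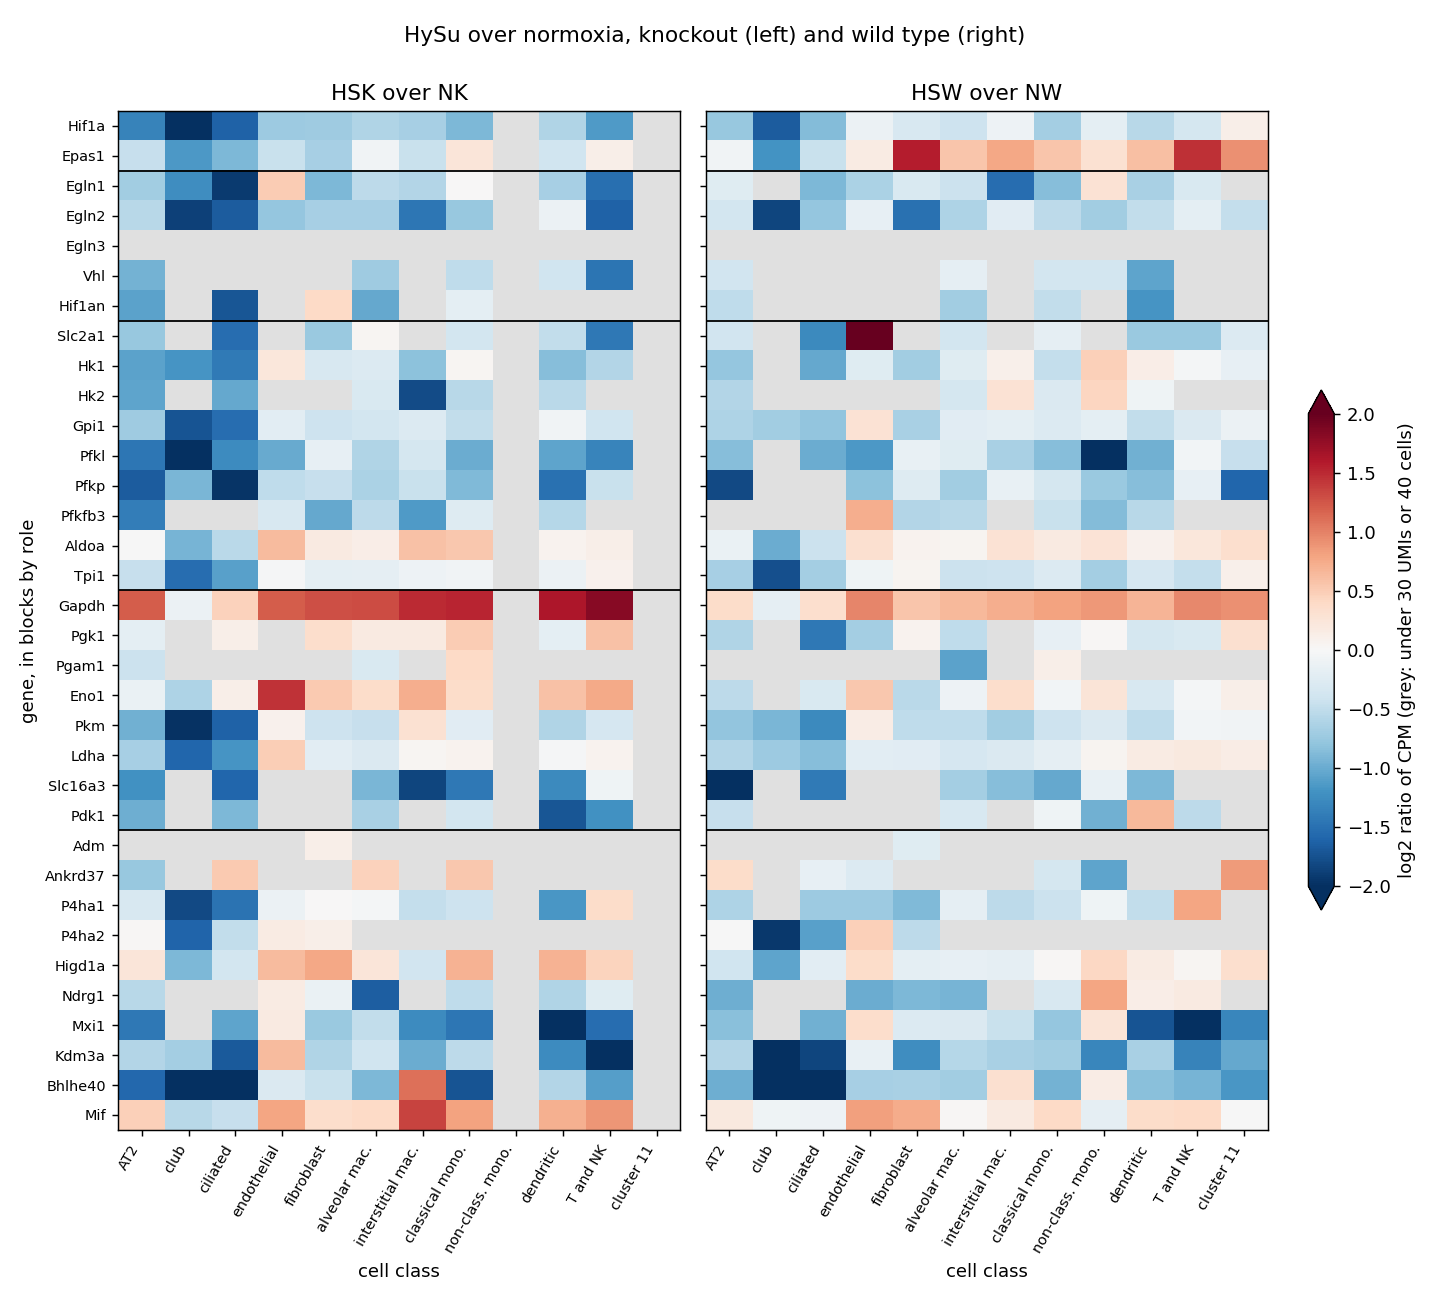
Log2 ratio of CPM under HySu for every member (rows) and class (columns), HSK over NK on the left and HSW over NW on the right; grey marks under 30 UMIs in the pair or under 40 cells in a library. The Gapdh row is higher in 8 of 10 classes on the left and 8 of 12 on the right, whereas the Bhlhe40 row is lower in 6 of 10 and 10 of 12.

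Of the alpha subunits, Hif1a was lower in HSK than in NK in all 10 classes by CPM, with ratios of 0.210 to 0.662. With TMM it stayed below 1 in all 10, at 0.557 to 0.916, and 3 passed 1.5-fold. AT2 cells had 36.4 CPM in HSK, 40.8 CPM in HSW, 92.2 CPM in NK and 69.2 CPM in NW, so both HySu libraries lay below both normoxia libraries, with a ratio of 0.395 [0.345 to 0.453] for HSK against NK. In HSW against NW, Hif1a was 1.5-fold lower in 4 of 12 classes by CPM and in 0 with TMM, which also put it above 1 in 4 classes. Epas1 in endothelial cells differed by less than 1.5-fold in every comparison. Of the 21 combinations higher in HSW than in NW, 5 were Epas1, 1 of them in fibroblasts and the others in leukocytes at the low levels given above.

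Epas1 in fibroblasts was the 1 combination past 1.5-fold in opposite directions in the genotypes with both CPM intervals excluding 1. These cells had 49 UMIs in HSK, 130 in HSW, 115 in NK and 46 in NW, or 51.9, 122, 82.0 and 41.1 CPM in that order. HSW was the highest and NW the lowest, with HSK near NW. The ratio was 2.97 [2.11 to 4.26] for HSW against NW and 0.634 [0.444 to 0.892] for HSK against NK. With TMM they were 3.67 and 0.781, the second within 1.5-fold, and with thinned cells the first was 4.65. The difference between the genotypes was not tested. Endothelial marker genes in fibroblasts stood at 524 CPM in HSK, 540 in HSW, 521 in NK and 458 in NW. Against every 100 of those marker UMIs there were 9.92 Epas1 UMIs in HSK, 22.6 in HSW, 15.7 in NK and 8.97 in NW, against 11.9 to 15.4 in endothelial cells. HSW was the highest. The top of the leukocyte range, 22.4, came from T and NK cells of HSK, with 19 Epas1 and 85 marker UMIs. Within HSW the highest leukocyte value was 16.9, in classical monocytes, and fibroblasts lay above it. In HSK, NK and NW the fibroblast value lay within the range of that library's leukocyte classes. The part of background in these fibroblast levels was not tested. In the alveolar fibroblast cluster alone the ratios were 3.49 and 0.598. In the adventitial cluster they were 1.84 [0.919 to 3.82] and 0.864 [0.38 to 1.90], from 12 to 25 UMIs per library.

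The oxygen sensors and their partners were lower or little different under HySu by CPM, and few passed with TMM. Egln1, the main prolyl hydroxylase of HIF, was 1.5-fold lower in 5 of 10 classes for HSW against NW and in 7 of 10 for HSK against NK, which TMM reduced to 1 and 3. Beside this and later counts of classes under HySu, 35.4% and 47.6% of all genes were lower in these comparisons over all classes. With TMM the shares were 15.5% and 19.5%. Ciliated cells had 8.49 CPM of Egln1 in HSK and 32.2 CPM in NK, a ratio of 0.264 [0.155 to 0.437], or 0.581 with TMM. Secretory club markers took 646600 CPM of the ciliated class in HSK, 643400 in HSW, 370900 in NK and 462200 in NW. That leaves less of the CPM total for every other gene in the HySu libraries. How far this set each ciliated ratio was not tested. Egln2 was lower in 5 of 12 and 8 of 10 classes, which TMM reduced to 2 and 2. In fibroblasts Egln2 had 27.6 CPM in HSK, 17.8 CPM in HSW, 43.5 CPM in NK and 50.0 CPM in NW, and the ratio of 0.357 [0.20 to 0.610] for HSW against NW stayed past 1.5-fold with TMM. Vhl, the recognition subunit for hydroxylated HIF, was past it under both scalings in dendritic cells of HSW against NW, at 0.482 [0.30 to 0.755]. Hif1an, the asparaginyl hydroxylase that blocks co-activator binding, was so in alveolar macrophages of HSK against NK, at 0.490 [0.374 to 0.638], or 0.676 with its clusters weighted equally.

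Among the upper steps of glycolysis the phosphofructokinases stood lower. Pfkl, the liver-type enzyme whose promoter is printed above, was lower in 7 of 11 classes for HSW against NW and 8 of 10 for HSK against NK, and in 3 and 6 with TMM. AT2 cells had 12.3 CPM of Pfkl in HSK, 15.4 CPM in HSW, 33.5 CPM in NK and 27.6 CPM in NW. Pfkp, the platelet-type enzyme, had 5.51, 5.12, 17.5 and 17.9 CPM in AT2 cells of HSK, HSW, NK and NW. Both HySu libraries lay below both normoxia libraries for each gene, and the Pfkp ratios were 0.315 [0.222 to 0.442] for HSK against NK and 0.286 [0.192 to 0.418] for HSW against NW. Dendritic cells had 65.2 CPM of Pfkp in HSK and 183 CPM in NK, a ratio of 0.356 [0.272 to 0.462]. The lowest Pfkl ratios rested on 3 UMIs in 1 library, at 0.0482 [0.00939 to 0.155] (0.128 with TMM) in secretory club cells of HSK against NK and 0.122 [0.0248 to 0.365] in non-classical monocytes of HSW against NW.

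Few of the other upper members passed under both scalings. Hk1, Gpi1 (glucose-6-phosphate isomerase), Tpi1 (triose-phosphate isomerase) and the glucose carrier Slc2a1 were 1.5-fold lower in 2 to 5 classes of either comparison by CPM, and in 0 or 1 with TMM. Hk2, the inducible hexokinase, passed under both scalings in interstitial macrophages of HSK against NK alone, at 0.288 [0.117 to 0.647] from 9 and 23 UMIs. Pfkfb3, which makes the activator of phosphofructokinase, had 33.9 CPM in HSK and 69.1 CPM in NK in fibroblasts, a ratio of 0.490 [0.318 to 0.738]. Aldoa went the other way, at 1.55 [1.29 to 1.87] in endothelial cells and 1.51 [1.26 to 1.81] in interstitial macrophages of HSK against NK. The marker lists of alveolar macrophages and classical monocytes, which share Chil3, also differed in the interstitial class. Alveolar macrophage markers stood there at 10430 CPM in HSK, 4927 in HSW, 670 in NK and 753 in NW, with all 11 above 0 in each library, and classical monocyte markers at 11260, 5990, 3013 and 2846 CPM. Alveolar macrophages themselves had 941 to 1082 CPM of Aldoa, the highest of the 10 classes. The part of those cells' RNA in every interstitial ratio for HySu was not tested.

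Of the lower steps, Gapdh was higher in the most classes in both HySu comparisons. T and NK cells had 2499 CPM in HSK, 1922 CPM in HSW, 708 CPM in NK and 990 CPM in NW. Classical monocytes had 1883, 1830, 652 and 1050 CPM and alveolar macrophages 1954, 1833, 792 and 1172 CPM in the same order. The HySu libraries lay above both normoxia libraries in each of these classes, and NK was the lowest.

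The Gapdh ratio for HSW against NW ran from 0.88 in secretory club cells to 1.96 in endothelial cells by CPM. With TMM it was 1.75 to 2.39 and past 1.5-fold in all 12 classes, club cells included at 1.90. For HSK against NK it ran from 0.926 in club cells to 3.53 [3.25 to 3.84] in T and NK cells, and with TMM from 2.46 to 4.51 in all 10 classes. Because AT2 cells, alveolar macrophages and classical monocytes were split over clusters filled unequally by the libraries, ratios were also taken within clusters. For HSK against NK they were 2.33 and 2.48 in the main AT2 clusters, 2.30, 2.59 and 2.62 in alveolar macrophages, and 2.89 and 2.08 in classical monocytes. Ribosomal protein genes were also a larger share under HySu in both genotypes in AT2 cells, endothelial cells, fibroblasts, classical monocytes and alveolar macrophages. They made up 11.1% of UMIs in HSK, 11.3% in HSW, 8.50% in NK and 9.54% in NW in alveolar macrophages, but in secretory club cells 3.38%, 3.40%, 5.21% and 4.76%. With a total that left out mitochondrial, ribosomal and haemoglobin genes, all 225 named ratios (by the rule given below) kept their direction and 221 stayed past 1.5-fold. Beyond that total, the part of ribosomal protein genes in the Gapdh result was not tested. Gapdh, Eno1, Pgk1, Pgam1, Tpi1, Ldha, Aldoa and Mif have processed pseudogenes or a near-identical copy, and how reads from those were counted was not given.

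**Figure D3:**
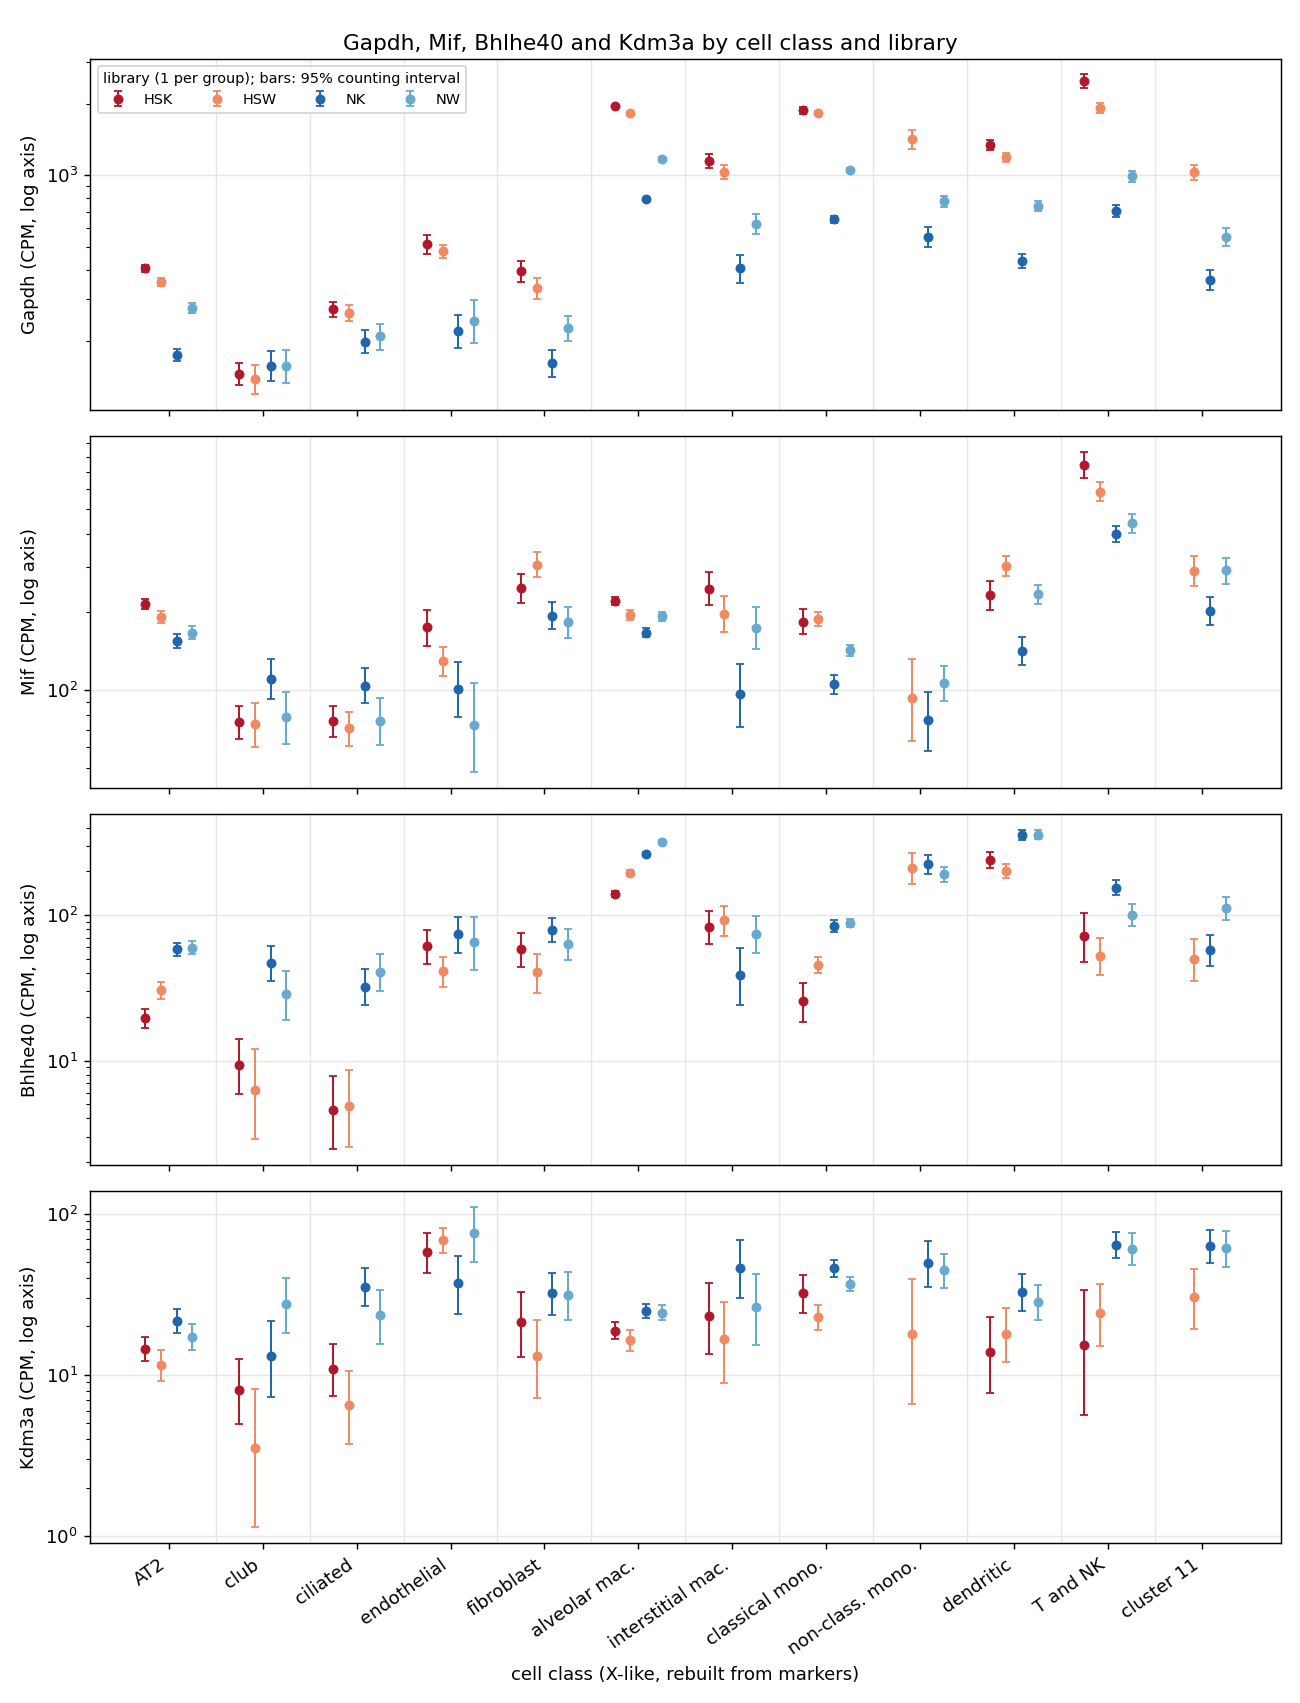
CPM of Gapdh, Mif, Bhlhe40 and Kdm3a by class and library, on log axes, with HySu libraries left of normoxia libraries; points are single libraries and bars are 95% intervals of counting error. Gapdh in T and NK cells lies at 2499 and 1922 CPM under HySu, above 708 and 990 CPM in normoxia, whereas Bhlhe40 in classical monocytes lies at 25.5 and 45.6 CPM, below 84.2 and 87.9 CPM.

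Eno1, like Gapdh, stood higher in HSK than in NK. With TMM both genes also lay lower in NK than in NW in all 12 classes. Eno1 was higher in 4 of 10 classes for HSK against NK, lower in 1, and higher in 9 of 10 with TMM. T and NK cells, for example, had 343 CPM in HSK, 240 CPM in HSW, 203 CPM in NK and 248 CPM in NW. There the HSK value was the highest and HSW was close to NW, and in wild-type lungs Eno1 passed 1.5-fold in 0 of 11 classes by CPM and 2 with TMM. Ldha, lactate dehydrogenase A, and Pkm were 1.5-fold lower in 2 to 4 classes by CPM in either comparison, and with TMM in 0.

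Slc16a3, the carrier that lets lactate out, was lower. Classical monocytes had 33.2 CPM in HSK, 45.7 CPM in HSW, 89.9 CPM in NK and 92.9 CPM in NW, and both HySu libraries lay below both normoxia libraries. The ratio was 0.370 [0.275 to 0.488] for HSK against NK and 0.492 [0.429 to 0.564] for HSW against NW. It was 1.5-fold lower in 6 of 7 classes in each comparison, and in 5 and 2 with TMM. Pgk1, phosphoglycerate kinase, was 1.5-fold higher in 1 of 8 classes of HSK against NK by CPM and in 5 with TMM, which put it above 1 in all 8 (1.21 to 2.39). In HSW against NW it was lower in 3 of 10 classes by CPM and in 0 with TMM, and in no class under HySu did it pass under both scalings. Pgam1, phosphoglycerate mutase, did so, lower, in alveolar macrophages of HSW against NW (0.478 [0.336 to 0.671]; 0.719 when cells were thinned to equal depth), and Pdk1 in dendritic cells of HSK against NK (0.307 [0.115 to 0.697], from 7 and 37 UMIs).

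Of the remaining targets, Bhlhe40 and Kdm3a were lower in most classes by CPM. Bhlhe40 in classical monocytes had 25.5 CPM in HSK, 45.6 CPM in HSW, 84.2 CPM in NK and 87.9 CPM in NW, and AT2 cells had 19.6, 30.6, 58.2 and 59.8 CPM in that order. In both classes the normoxia libraries were close together, HSW lay below them and HSK lowest. With TMM Bhlhe40 was 1.5-fold lower in 5 of 12 classes for HSW against NW and 6 of 10 for HSK against NK, by CPM in 10 and 6. In HSW against NW it was also 1.5-fold higher in 1 class with TMM, at 1.66, and above 1 in 2 classes by CPM, at most 1.25. In ciliated cells the ratios were 0.143 [0.0713 to 0.267] for HSK against NK and 0.120 [0.0580 to 0.229] for HSW against NW, or 0.315 and 0.219 with TMM, beside the club markers of that class given above. Interstitial macrophages differed, with 83.2 CPM in HSK and 38.9 CPM in NK, a ratio of 2.14 [1.28 to 3.70] that became 1.16 with mixed cells kept and turned to 0.636 with thinned cells. Alveolar macrophages, whose markers were higher in that class in HSK (10430 CPM, against 670 CPM in NK), had 140 CPM of Bhlhe40 in HSK and 262 CPM in NK themselves.

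Kdm3a was below 1 in all 12 classes for HSW against NW by CPM; TMM put it above 1 in 1 class and left 6 past 1.5-fold. For HSK against NK it was 1.5-fold lower in 6 of 10 classes and higher in 1, endothelial cells (57.5 CPM in HSK and 37.1 CPM in NK), but with TMM lower in 2 and higher in 2. T and NK cells had 15.4 CPM in HSK, 24.1 CPM in HSW, 64.0 CPM in NK and 60.8 CPM in NW, from 6, 22, 118 and 81 UMIs. Mxi1, an antagonist of MYC, had 20.8 CPM in HSK, 29.6 CPM in HSW, 56.3 CPM in NK and 50.3 CPM in NW in classical monocytes, and in dendritic cells 7.35, 10.3, 40.2 and 34.2 CPM. Both HySu libraries were again below both normoxia libraries. The dendritic ratios for Mxi1 were 0.183 [0.0759 to 0.38] for HSK against NK and 0.301 [0.164 to 0.521] for HSW against NW, and both stayed past 1.5-fold with TMM.

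Mif and Higd1a, which encodes a small mitochondrial protein of the respiratory chain, were higher. Mif in T and NK cells had 742 CPM in HSK, 585 CPM in HSW, 401 CPM in NK and 441 CPM in NW, with both HySu libraries above. Mif was 1.5-fold higher in 5 of 10 classes for HSK against NK and 2 of 12 for HSW against NW by CPM, and in 10 and 9 with TMM. By CPM it lay below 1 in club and ciliated cells of both comparisons, where TMM gave 1.60 to 2.03. In HSW against NW it was also below 1 in cluster 11 (0.997, with TMM 1.15) and in non-classical monocytes (0.879, with TMM 0.997). In interstitial macrophages, which numbered 88 in HSK, 117 in HSW, 102 in NK and 97 in NW, Mif had 247, 197, 96.3 and 174 CPM in that order. There NK stood lowest, and the ratio was 2.56 [1.87 to 3.56] for HSK against NK and 1.13 [0.882 to 1.46] for HSW against NW, beside the alveolar macrophage and monocyte markers of that class given above. Higd1a in classical monocytes had 195 CPM in HSK, 168 CPM in HSW, 121 CPM in NK and 165 CPM in NW, and it was higher in 4 of 10 classes for HSK against NK. HSW and NW were close for Higd1a, which was higher in 0 of 12 classes by CPM and 2 with TMM.

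Few of the other targets passed under both scalings. Ndrg1, a stress-responsive gene, was lower in alveolar macrophages, at 2.6 CPM in HSK, 3.14 CPM in HSW, 8.13 CPM in NK and 6.0 CPM in NW, and in fibroblasts of HSW against NW, at 48.8 CPM in HSW and 91.0 CPM in NW. P4ha1 and P4ha2 encode collagen prolyl 4-hydroxylases; P4ha1 passed in dendritic cells of HSK against NK, at 0.446 [0.265 to 0.722], and in T and NK cells of HSW against NW, at 1.72 [1.01 to 2.95], where it was 1.01 with mixed cells kept. P4ha2 passed in no class. Ankrd37, which encodes an ankyrin repeat protein, passed in non-classical monocytes alone, with 0 UMIs in HSW and 30 in NW, where a floor of 3 counts in HSW is 9.02 CPM, at most 0.479 of the 18.8 CPM in NW.

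Endothelial cells are the class to which the title of the series refers. They numbered 130 in HSK, 289 in HSW, 148 in NK and 60 in NW, and their defining markers stood at 22780 to 29520 CPM. For HSK against NK, 6 of 23 measured members were 1.5-fold higher, against 13% of all genes in that class, and 3 were lower, against 28.2%. The median log2 ratio of the measured members was 0.16, against -0.21 for all genes. For HSW against NW, 4 of 26 were higher (15.1% of all genes) and 7 lower (19% of all genes), with medians of -0.10 and -0.07.

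Gapdh in endothelial cells had 512 CPM in HSK, 478 CPM in HSW, 221 CPM in NK and 244 CPM in NW, so both HySu libraries lay above both normoxia libraries. Mif had 175, 130, 101 and 73.2 CPM and Aldoa 395, 428, 255 and 342 CPM in that order. Eno1 had 64.3 CPM in HSK, 66.6 CPM in HSW, 23.7 CPM in NK and 46.1 CPM in NW, with NK the lowest. The ratios for HSK against NK were 2.32 [1.92 to 2.81] for Gapdh, 1.74 [1.30 to 2.34] for Mif, 1.55 [1.29 to 1.87] for Aldoa, 2.71 [1.54 to 5.06] for Eno1 and 1.56 [1.15 to 2.12] for Higd1a. When only Scrublet doublet calls were removed and mixed cells kept, Eno1 and Aldoa were each at 1.1, within 1.5-fold.

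For HSW against NW the endothelial ratio was 1.96 [1.58 to 2.46] for Gapdh and 1.77 [1.19 to 2.74] for Mif, against 0.449 [0.266 to 0.780] for Pfkl and 0.500 [0.366 to 0.691] for Ndrg1. With mixed cells kept these became 1.42, 1.30, 0.838 and 0.793, all within 1.5-fold. Slc2a1, the glucose carrier GLUT1, had 14 UMIs in HSK, 29 in HSW, 11 in NK and 1 in NW, and its ratio of 5.84 [0.969 to 239] for HSW against NW rests on that single UMI. Red cell markers in the endothelial class stood at 6007 CPM in HSK, 4876 in HSW, 102 in NK and 10810 in NW. A total without mitochondrial, ribosomal and haemoglobin genes kept the direction of all 225 named ratios of the report, with 221 still past 1.5-fold. Beyond that total, the part of red cell RNA in these endothelial ratios was not tested.

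**Figure D4:**
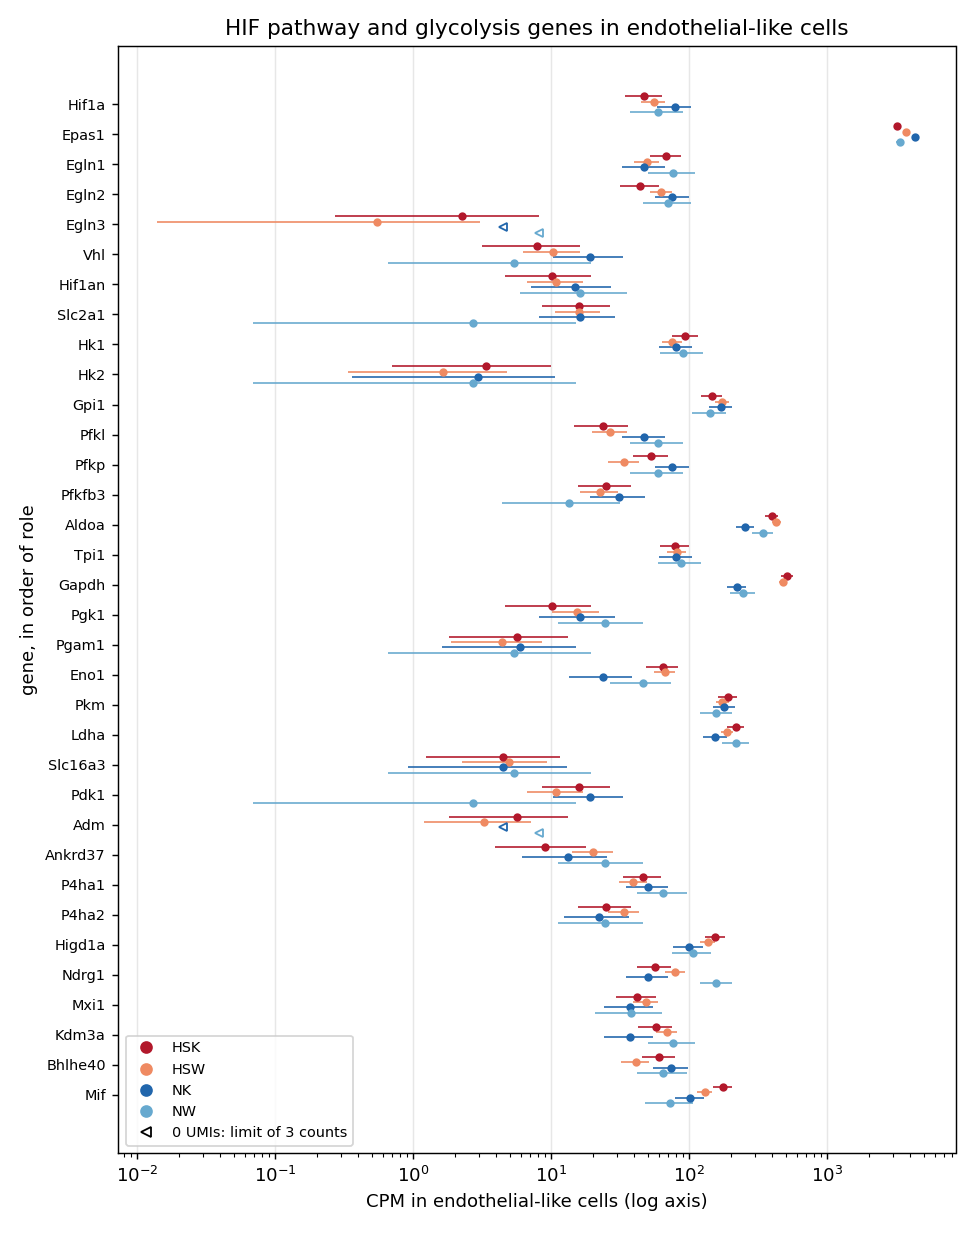
CPM of the members in endothelial cells of each library, on a log axis; points are single libraries and bars are 95% intervals of counting error. Gapdh lies at 512 and 478 CPM in HSK and HSW and at 221 and 244 CPM in NK and NW, and Epas1 at 3206 to 4346 CPM in all 4.

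The second question is how knockout lungs compare with wild-type lungs in normoxia. In NK against NW, 32 of 322 combinations were higher (9.94%), against 13.2% of all genes, and 28 were lower (8.70%), against 6.97% of all genes. With TMM scaling 22 were higher and 37 lower, where 9.62% and 9.3% of all genes were. Gapdh was lower in 5 of 12 classes, and in 7 with TMM, with ratios of 0.588 to 1.005 by CPM. It was below 1 in all 12 with TMM, and past 1.5-fold under both scalings in AT2 cells (0.631 [0.586 to 0.680]), classical monocytes (0.621 [0.598 to 0.644]), dendritic cells (0.588 [0.539 to 0.641]), cluster 11 and interstitial macrophages. Thinned cells put AT2 cells at 0.679 and classical monocytes at 0.696, and with mixed cells kept cluster 11 was at 0.688 and interstitial macrophages at 0.765, all within 1.5-fold. Mif had 142 CPM in NK and 234 CPM in NW in dendritic cells, a ratio of 0.604 [0.518 to 0.704], or 0.694 as a mean over cells. Eno1, Aldoa and Higd1a were above 1 in 1, 3 and 2 of 12 classes by CPM, and in 0, 0 and 1 with TMM. Their TMM ratios were 0.502 to 0.929, 0.728 to 0.963 and 0.55 to 1.01 in that order. Eno1 and Higd1a were each 1.5-fold lower in 2 classes under either scaling, and Aldoa in 0. NK and NW are also the libraries that HSK and HSW are set against, so these values and those of HySu share their normoxia libraries.

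In endothelial cells of NK against NW, 0 of 21 members were higher (15.2% of all genes) and 4 were lower (10.2% of all genes). Ndrg1 had 50.4 CPM in NK and 157 CPM in NW, from 34 and 58 UMIs, and a ratio of 0.321 [0.203 to 0.498]. Kdm3a had 37.1 CPM in NK and 75.9 CPM in NW, from 25 and 28 UMIs. With mixed cells kept the ratios became 0.744 for Ndrg1 and 1.03 for Kdm3a. Outside that class, Ankrd37 in classical monocytes had 4.49 CPM in NK and 11.3 CPM in NW (0.396 [0.247 to 0.613]), and P4ha1 in fibroblasts had 101 CPM in NK and 186 CPM in NW (0.545 [0.437 to 0.678]; 0.676 with mixed cells kept). P4ha1 in secretory club cells was higher, with 39 UMIs in NK and 7 in NW, at 4.76 [2.11 to 12.6]. Dendritic cells had 21.0 CPM of Pdk1 in NK and 9.45 CPM in NW, a ratio of 2.22 [1.26 to 3.99], and T and NK cells had 72.7 CPM of Egln1 in NK and 39.0 CPM in NW, a ratio of 1.86 [1.34 to 2.62]. Bhlhe40 in cluster 11 was lower, with 57.4 CPM in NK and 111 CPM in NW, at 0.515 [0.375 to 0.702].

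**Figure D5:**
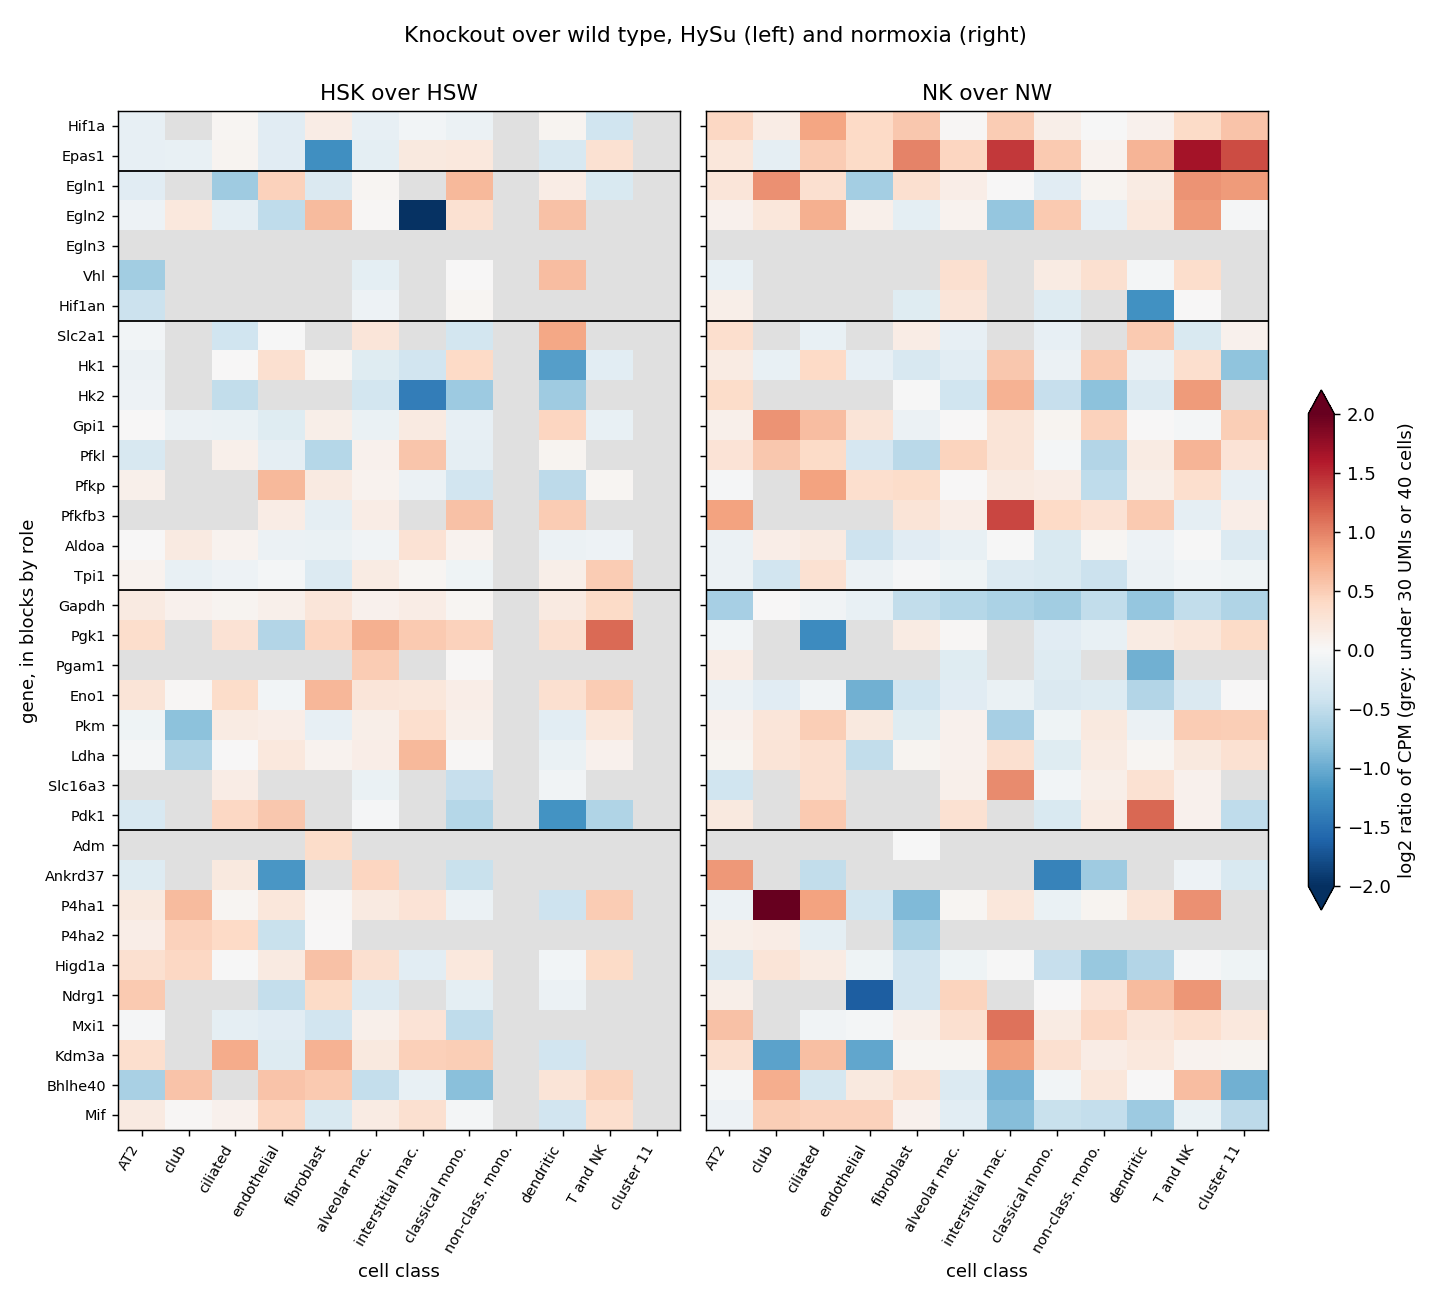
Log2 ratio of CPM between genotypes for every member (rows) and class (columns), HSK over HSW on the left and NK over NW on the right; grey marks under 30 UMIs in the pair or under 40 cells in a library. Gapdh is 1.03 to 1.30 on the left and 0.588 to 1.005 on the right, and Epas1 in fibroblasts is 0.425 on the left and 2.00 on the right (1.30 with mixed cells kept).

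The same question under HySu is put by HSK against HSW, where 14 of 248 combinations were higher (5.65%), against 7.48% of all genes, and 16 were lower (6.45%), against 8.8% of all genes; TMM gave 16 and 15, where 7.84% and 8.51% of all genes were. Gapdh was 1.03 to 1.30 in the 10 classes and passed 1.5-fold in none. Eno1 was 0.965 to 1.58 and passed 1.5-fold in 1, fibroblasts, where it became 0.816 with mixed cells kept. Bhlhe40 was lower in classical monocytes at 0.560 [0.396 to 0.775] and in AT2 cells at 0.640 [0.522 to 0.784], with TMM at 0.542 and 0.665. Pgk1 was higher in alveolar macrophages, with 27.9 CPM in HSK and 17.0 CPM in HSW (1.64 [1.37 to 1.96]; 1.36 in thinned cells), and in T and NK cells at 2.19 [1.27 to 3.75]. Hk2 was lower in classical monocytes, with 28.5 CPM in HSK and 46.9 CPM in HSW (0.607 [0.437 to 0.827]; 0.685 in thinned cells). Interstitial macrophages had 10 UMIs of Egln2 in HSK and 42 in HSW (0.253 [0.113 to 0.513]) and dendritic cells 15 UMIs of Hk1 in HSK and 46 in HSW (0.466 [0.241 to 0.849]). Vhl in AT2 cells had 6.05 CPM in HSK and 9.81 CPM in HSW (0.617 [0.426 to 0.891]). Epas1 in fibroblasts was lower at 0.425 [0.30 to 0.595], with the limit given above on background. In endothelial cells Ankrd37 had 8 UMIs in HSK and 37 in HSW (0.447 [0.18 to 0.974]), and Pfkp had 53.0 CPM in HSK and 33.9 CPM in HSW (1.57 [1.05 to 2.33]; 1.41 with mixed cells kept).

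Further genes of the pathway were counted by list. Of other HIF targets (35 of 36 symbols found), 13 of 248 combinations were higher (5.24%, against 6.63% of all genes) and 98 lower (39.5%, against 35.4%) in HSW against NW. With TMM 38 were higher (15.3%, against 15.2%) and 53 lower (21.4%, against 15.5%). For HSK against NK 14 of 225 were higher (6.22%, against 7.53%) and 127 lower (56.4%, against 47.6%), and with TMM 37 higher (16.4%, against 18.7%) and 65 lower (28.9%, against 19.5%). The remaining lists have the same shares of all genes beside them in each comparison. Of the other enzymes and carriers of glycolysis, 3 of 68 were higher (4.41%) and 28 lower (41.2%) in HSW against NW. With TMM 9 were higher (13.2%) and 13 lower (19.1%). For HSK against NK 4 of 60 were higher (6.67%) and 38 lower (63.3%), and with TMM 5 (8.33%) and 24 (40%). Genes for the mitochondrial entry and use of pyruvate had 6 of 88 higher (6.82%) and 25 lower (28.4%) in HSW against NW. With TMM they had 17 higher (19.3%) and 5 lower (5.68%). In HSK against NK they had 5 of 72 higher (6.94%) and 25 lower (34.7%), and with TMM 19 (26.4%) and 4 (5.56%). Further regulators of HIF had 7 of 133 higher (5.26%) and 59 lower (44.4%) in HSW against NW, and with TMM 21 (15.8%) and 16 (12.0%). In HSK against NK they had 15 of 114 higher (13.2%) and 66 lower (57.9%), and with TMM 29 (25.4%) and 27 (23.7%). In endothelial cells Arnt, the HIF partner subunit, had 22.6 CPM in HSK, 19.7 CPM in HSW, 57.8 CPM in NK and 56.9 CPM in NW, with ratios of 0.390 [0.216 to 0.686] for HSK against NK and 0.346 [0.196 to 0.623] for HSW against NW. Of 11 such regulators measured there, 4 were higher and 6 lower for HSK against NK (13% and 28.2% of all genes). For HSW against NW 1 was higher and 1 lower (15.1% and 19% of all genes). With TMM these counts were 4 and 4, and 4 and 1. The TMM share of all genes in this class is not given here, so these TMM counts are not read as a difference from it. Of the other lists in this class, Pdgfb and Mpc2 are named. For HSK against NK and HSW against NW, Pdgfb, a growth factor for pericytes, was lower at 0.281 [0.213 to 0.368] and 0.502 [0.392 to 0.646]. Mpc2, a subunit of the mitochondrial pyruvate carrier, was higher at 2.17 [1.53 to 3.11] and 1.62 [1.08 to 2.52]. In NK against NW, 59 of 269 combinations of other HIF targets were higher (21.9%, against 13.2% of all genes) and 14 lower (5.20%, against 6.97%). With TMM 46 were higher (17.1%, against 9.62%) and 23 lower (8.55%, against 9.3%). Ciliated cells held 10 of the 59. The gene Ddit4 recurred over several classes, by CPM from 1.52 in dendritic cells to 14.8 in interstitial macrophages, the latter from 37 and 3 UMIs. The 59 are therefore not 59 separate genes.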

How the data were processed

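The deposited matrices hold raw counts of UMIs per gene and cell, as made by the authors. The submitters' processing notes name, with no role or order, STAR 2.6.1a, cutadapt 1.17 and featureCounts 2.0.1, Scanpy and the build GRCm38 (mm10). The fewest UMIs in any cell were 4726 in HSK, 4230 in HSW, 3182 in NK and 3775 in NW, so the matrices held filtered cells, by a step not given in the sources used here. Whether the pooled mice were tracked was not given, and each library is 1 sample.

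Cells with at least 200 genes and at most 20% mitochondrial UMIs were kept and clustered with scanpy 1.11.5 and leidenalg 0.10.2 (python 3.11.15, numpy 2.4.6) on 2000 variable genes, 40 components and 20 neighbours, at resolution 1. Scrublet, run per library with an expected 6% of doublets, called 30 cells in HSK, 8 in HSW, 1 in NK and 4 in NW, too few to have worked. Cells that held at least 3 marker UMIs of another lineage, at 0.25 or more of that lineage's typical level, were therefore removed as mixed. This rule was set after the clusters were seen and judged by their purity, before any ratio was computed. Clusters without enough markers stayed unnamed, at 3.58% of kept cells in HSK, 4.66% in HSW, 10.3% in NK and 6.75% in NW. A difference from the study's own cell types may come from these rebuilt names.

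Counts were summed per class and library. Levels are shown for classes of at least 20 cells and ratios for at least 40 cells in both libraries. Levels carry exact Poisson 95% intervals and ratios exact conditional-binomial (Clopper-Pearson) intervals from scipy 1.17.1; both cover counting error only, and a count of 0 is read against a floor of 3 counts. TMM factors came from edgeR 4.0.16, which ran no test here. The ratio step was checked on simulated data. Named members have at least 30 UMIs in the pair, a ratio of at least 1.5 or at most 0.667 and an interval that excludes 1, at most the 8 farthest from 1. Others are named as roles with levels, or to complete a count. The members and lists were chosen with earlier results of these data known. The alternatives were the scaling, the total, the UMI minimum, the resolution, the treatment of mixed cells and the depth, and 3 more were added after seeing the data. Promoters come from RefSeq (GRCm38.p6); the deposited tables give gene symbols only.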

Additional observations from a re-analysis of the deposited data

Results flagged for a closer look

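Epas1 in fibroblasts was higher in HSW than in NW and lower in HSK than in NK. The log2 ratio of HSK to NK minus that of HSW to NW was -2.23, and this difference between the genotypes was not tested, since each group is 1 library. The levels were 51.9 CPM in HSK, 122 CPM in HSW, 82.0 CPM in NK and 41.1 CPM in NW. For every 100 UMIs of endothelial marker genes in fibroblasts there were 9.92, 22.6, 15.7 and 8.97 Epas1 UMIs in that order, against 11.9 to 15.4 in endothelial cells.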

How the results depend on the processing

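No paired analysis was possible because each group is 1 library and no result comes from a test. The counts of combinations past 1.5-fold depended on the scaling and on the UMI minimum. With TMM, 58 were higher and 46 lower for HSK against NK, and 46 higher and 36 lower for HSW against NW. With no UMI minimum, 45 were higher and 30 lower for HSK against HSW, 36 were higher for HSW against NW, and 61 were higher for NK against NW. With a minimum of 100 UMIs, which leaves fewer combinations, 5 were higher and 7 lower for HSK against HSW, 62 lower for HSK against NK, 12 higher and 55 lower for HSW against NW, and 12 higher and 14 lower for NK against NW. Thinned cells gave 57 lower for HSW against NW. Without Gapdh and Mif, 13 were higher for HSK against NK and 11 for HSW against NW, so these 2 genes made up about as many of the higher calls as all other members together.

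Of 225 named ratios, 224 kept their direction with TMM and 162 were still past 1.5-fold; with mixed cells kept these numbers were 221 and 184. Thinning left 143 that could be measured, of which 142 kept their direction and 119 were still past it. The reversed ones were Higd1a in club cells with TMM (HSW over NW, 1.043), Bhlhe40 in interstitial macrophages with thinned cells (HSK over NK, 0.636), and with mixed cells kept P4ha1 (0.931) and Egln2 (0.997) in T and NK cells and Kdm3a in endothelial cells (1.03), all NK over NW, and Eno1 in fibroblasts (HSK over HSW, 0.816). The cause was not tested. Thinning to 4726 UMIs left out 0 cells in HSK, 453 in HSW, 2547 in NK and 1388 in NW. Leaving out shared barcodes, weighting clusters equally and leaving out Gapdh and Mif were chosen after seeing the data. The first and second of these, a mean over cells, resolution 2, mixed cells kept and a total without mitochondrial, ribosomal and haemoglobin genes kept all 8 counts within 1.5 times. Small classes, such as the 60 endothelial cells of NW, limit the precision of their ratios.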
